A study of Homo sapiens with 12 samples.

Results

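The mitosis and cytokinesis genes described here were 55 genes that act in the G2 phase, in mitosis or in the separation of daughter cells, chosen by gene symbol. They are a part of such genes: 62 further mitosis genes were listed apart, and the 18 of them with a named probe are described below. For each gene the deposited table held at least 1 probe, and the probe with the highest mean signal over the 12 arrays was used, so that 55 of the 7331 genes with a named probe were followed. The cells were HT29, an established human colorectal cancer line, and Illumina HumanHT-12 v4 BeadChips measured total RNA 24 h after transfection at a final siRNA concentration of 5 nM. There were 3 groups of 4 arrays, which the sources call biological replicates: HT29 cells given siLRH-1 #1, HT29 cells given siLRH-1 #2, and HT29 cells given siLUC, a non-targeting siRNA against luciferase. Both LRH-1 siRNAs were raised against the transcript of LRH-1, a nuclear receptor whose gene is NR5A2, and the comparisons ask which genes depend on it in this line. NR5A2 itself was not analysed here, and no level of it is given. All groups share 1 cell line and the transfection reagent, and the 2 comparisons with siLUC share the same 4 siLUC arrays.

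Entry into mitosis is driven by CDK1 bound to cyclin B, which is switched on by CDC25 phosphatases while the opposing phosphatase PP2A-B55 is held back by MASTL and ARPP19. Kinesins and other spindle proteins then build the spindle, the checkpoint proteins delay chromosome separation until all kinetochores are attached, and a contractile ring divides the cell. Most of these genes are transcribed late in the cell cycle, from promoters with a cell cycle homology region (CHR) and CCAAT boxes bound by NF-Y, through the MuvB complex, B-MYB and FOXM1. In the intestine, LRH-1 is best known for its part in crypt cell renewal and local glucocorticoid synthesis. In bulk RNA, fewer cells in mitosis and less RNA per cell cannot be told apart.

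All 55 members had a siLUC mean above the array medians, which MKI67 exceeded only slightly. Their mean log2 signals in siLUC cells ran between 6.79, for MKI67, and 13.24, for CKS1B, with a median of 9.71, against a median of 7.41 over all named genes. For 0 of the 55 members was the siLUC mean below the highest array median of 6.57. The label of the line was checked against 9 measured colon epithelial markers of 12 listed, whose mean log2 signals lay between 6.92 and 13.4 with 0 below the array medians and 0 called against siLUC. Of 12 markers of other cell types only COL1A2, DCN and CD14 had a named probe, all 3 below the array medians. A listed gene is called measured where it had a named probe. Probes without a symbol were not searched for the other listed genes. The array siLRH-1 #2 replicate 2 stood apart, with 50 probes at least 0.5 above every other array where no other array had more than 1, but 0 of these were members.

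The promoters are shown first because they hold what most members share. Windows of 300 bases around the gene start (250 before it and 50 from it on) were taken from RefSeq on GRCh38.p14 and matched 48 of the 55 members. FOXM1, AURKA, BIRC5, BUB3, CENPM, FAM83D and CDCA2 were not matched. The window from 150 bases before the start to 20 bases from it on is given, 5′ to 3′ along the gene, for 3 members that fell with siLRH-1 #1 (CCNF, chr16:2429297-2429466, plus strand; CDCA3, chr12:6851267-6851436, minus strand; KIF2C, chr1:44739687-44739856, plus strand) and for 4 that rose with siLRH-1 #2 (ASPM, chr1:197146650-197146819, minus strand; KIF23, chr15:69414199-69414368, plus strand; DEPDC1, chr1:68497063-68497232, minus strand; KIF11, chr10:92592980-92593149, plus strand). The windows printed are examples, not a ranked choice, and all hold the letters of a CHR, TTTGAA or TTTAAA. The 300-base windows of ARPP19, CDC25B and CDC25C, which were called too, held neither CHR letters nor CCAAT. Capitals mark the CHR letters TTTGAA or TTTAAA and the NF-Y box CCAAT, on either strand (TTCAAA and ATTGG on the other strand).
CCNF: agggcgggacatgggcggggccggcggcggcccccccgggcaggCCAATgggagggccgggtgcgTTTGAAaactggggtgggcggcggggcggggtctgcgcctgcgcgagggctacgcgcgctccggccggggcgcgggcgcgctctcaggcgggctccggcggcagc
CDCA3: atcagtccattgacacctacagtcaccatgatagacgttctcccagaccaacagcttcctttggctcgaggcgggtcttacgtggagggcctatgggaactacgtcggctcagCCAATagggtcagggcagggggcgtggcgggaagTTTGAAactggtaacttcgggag
KIF2C: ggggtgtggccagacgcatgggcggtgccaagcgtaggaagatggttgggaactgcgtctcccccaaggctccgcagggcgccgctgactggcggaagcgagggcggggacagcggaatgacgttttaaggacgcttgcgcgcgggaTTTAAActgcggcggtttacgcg
ASPM: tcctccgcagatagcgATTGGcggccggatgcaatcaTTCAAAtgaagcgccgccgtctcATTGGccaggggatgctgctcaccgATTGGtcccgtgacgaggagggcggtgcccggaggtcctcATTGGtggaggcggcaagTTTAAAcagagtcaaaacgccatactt
KIF23: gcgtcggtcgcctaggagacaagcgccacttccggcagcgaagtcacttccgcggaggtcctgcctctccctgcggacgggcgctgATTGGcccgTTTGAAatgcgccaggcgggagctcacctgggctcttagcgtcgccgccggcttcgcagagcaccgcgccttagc
DEPDC1: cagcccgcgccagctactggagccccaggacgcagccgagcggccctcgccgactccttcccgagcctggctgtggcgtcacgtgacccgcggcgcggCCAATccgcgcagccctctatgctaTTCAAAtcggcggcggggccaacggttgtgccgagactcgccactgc
KIF11: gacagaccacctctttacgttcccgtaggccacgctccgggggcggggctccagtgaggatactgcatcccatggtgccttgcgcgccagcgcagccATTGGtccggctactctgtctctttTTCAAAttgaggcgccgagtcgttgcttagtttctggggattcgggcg

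The letters TTTGAA stood in 34 of the 48 member windows (70.8%), against 10.7% of the windows of 5805 named genes on the array. TTTAAA stood in 25.0% of the member windows, against 8.25%, and 1 or both in 79.2%, against 17.1%. CCAAT stood in 36 windows (75.0%), against 37.0%, and the E2F letters TTTCGCGC or TTTGGCGC in 4.17%, against 2.24%. Each motif was sought on both strands, and TTTAAA reads the same on both. The site written for LRH-1 (a pyrimidine, CAAGG, a pyrimidine, C and a purine) stood in 1 member window, that of CCNA2 (2.08%, against 2.48% of the named genes). The CHR letters of either form were found in 3 of 4 matched members that fell with siLRH-1 #1, in 12 of 14 that rose with siLRH-1 #2 and in 23 of 30 called with neither, or 75.0%, 85.7% and 76.7%. A match shows the letters in the window, and whether they act as a CHR was not tested. No match says only that these letters are not in this window.

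**Figure D1:**
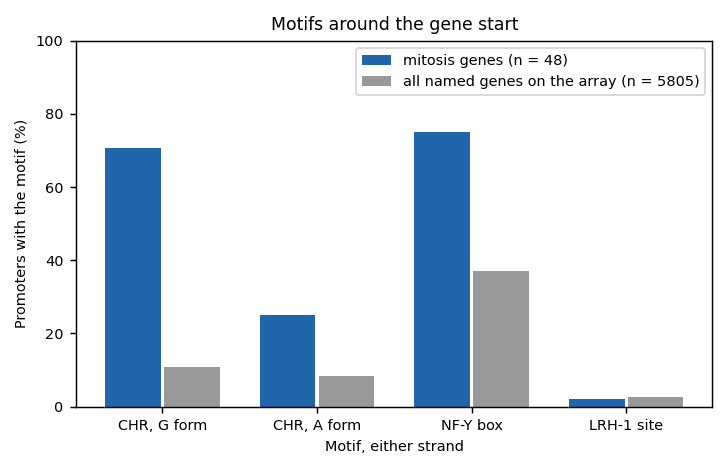
Share (%) of RefSeq promoter windows that hold each motif on either strand, for the 48 matched mitosis and cytokinesis genes (blue) and for 5805 named genes on the array (grey); the G form of the CHR is TTTGAA and the A form TTTAAA. The G form stood in 70.8% of the member windows against 10.7%, while the LRH-1 site stood in 2.08% against 2.48%.

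The 2 LRH-1 siRNAs differed in their effect on these genes. With siLRH-1 #1, 5 members fell and 0 rose: BIRC5, CCNF, ARPP19, KIF2C and CDCA3. With siLRH-1 #2, 14 rose and 1 fell; ARPP19, ANLN, ASPM, DEPDC1 and KIF23 rose most, and CDC25B fell. Called changes were small, at most 1.36-fold with siLRH-1 #1 (BIRC5) and 1.39-fold with siLRH-1 #2 (ARPP19). A gene was called at a limma adjusted p under 0.05 over all 16381 probes.

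Against siLUC, the 5 members called with siLRH-1 #1 were 9.09% of the 55, beside 7.00% of all probes and 10.2% of the brightest probes of named genes, so that the share called was close to the background. All 5 were lower, the direction of 3.78% of all probes and 5.17% of named genes, and 0 were higher, beside 3.22% and 5.05%. The 15 members called with siLRH-1 #2 were 27.3%, beside 7.00% of all probes and 10.0% of named genes, and the 14 higher ones were 25.5%, beside 3.25% and 5.14%. The 1 lower member was 1.82%, beside 3.74% of all probes and 4.88% of named genes. The median log2 change of the members was 0.02 with siLRH-1 #1 and 0.13 with siLRH-1 #2, against 0.01 for all named genes in both comparisons. Of the 55 members, siLRH-1 #1 had 30 above siLUC (54.5%, against 52.4% of named genes) and siLRH-1 #2 had 47 (85.5%, against 54.2%).

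The 4 arrays of the 2 groups did not overlap for 11 members in the comparison of siLRH-1 #1 with siLUC (3 above, 8 below). These were 20.0% of the members, against 13.2% of all probes (6.62% above, 6.59% below). In the comparison of siLRH-1 #2 with siLUC they did not overlap for 25 members (23 above, 2 below), or 45.5%, against 12.8% of all probes (6.40% above, 6.43% below). The members are brighter than most probes, with a siLUC median of 9.71 against array medians of at most 6.57. Shares without overlap were not taken over named genes, here or between the siRNAs. Leaving out siLUC replicate 2 left 8 members called with siLRH-1 #2, leaving out siLUC replicate 3 or siLRH-1 #2 replicate 1 left 9, and the other arrays left 10 to 15. The members called under all 20 other settings were ARPP19, ANLN, ASPM, DEPDC1, ECT2 and CDC25B with siLRH-1 #2, and all 5 with siLRH-1 #1. With siLRH-1 #1 the count stayed at 5 or 6 whichever array was left out.

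Tested directly against each other, siLRH-1 #1 and siLRH-1 #2 differed for 18 members, 1 higher and 17 lower with siLRH-1 #1. These were 32.7% of the members, beside 9.94% of all probes and 14.7% of named genes. The 17 lower ones were 30.9%, beside 5.13% of all probes and 7.73% of named genes, and the 1 higher was 1.82%, beside 4.82% and 6.97%. The median difference was -0.12, against -0.00 for all named genes, and 25 members did not overlap (2 above, 23 below), against 14.9% of all probes (7.61% above, 7.32% below). All 5 members called with siLRH-1 #1 and 11 of the 15 called with siLRH-1 #2 were among the 18, together with BUB1B, CCNA2 and MKI67, which were called with neither against siLUC. CDK1, CDC25C, ECT2 and KIF4A, called with siLRH-1 #2 against siLUC, were not among the 18. ARPP19 was the member called in opposite directions by the 2 siRNAs. Called in the same direction with both were 0 members by limma and 0 without moderation of the spread, while 3 had an unadjusted p under 0.05 in the same direction with both. Over all 3 comparisons 22 members were called at least once and 33 were not.

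**Figure D2:**
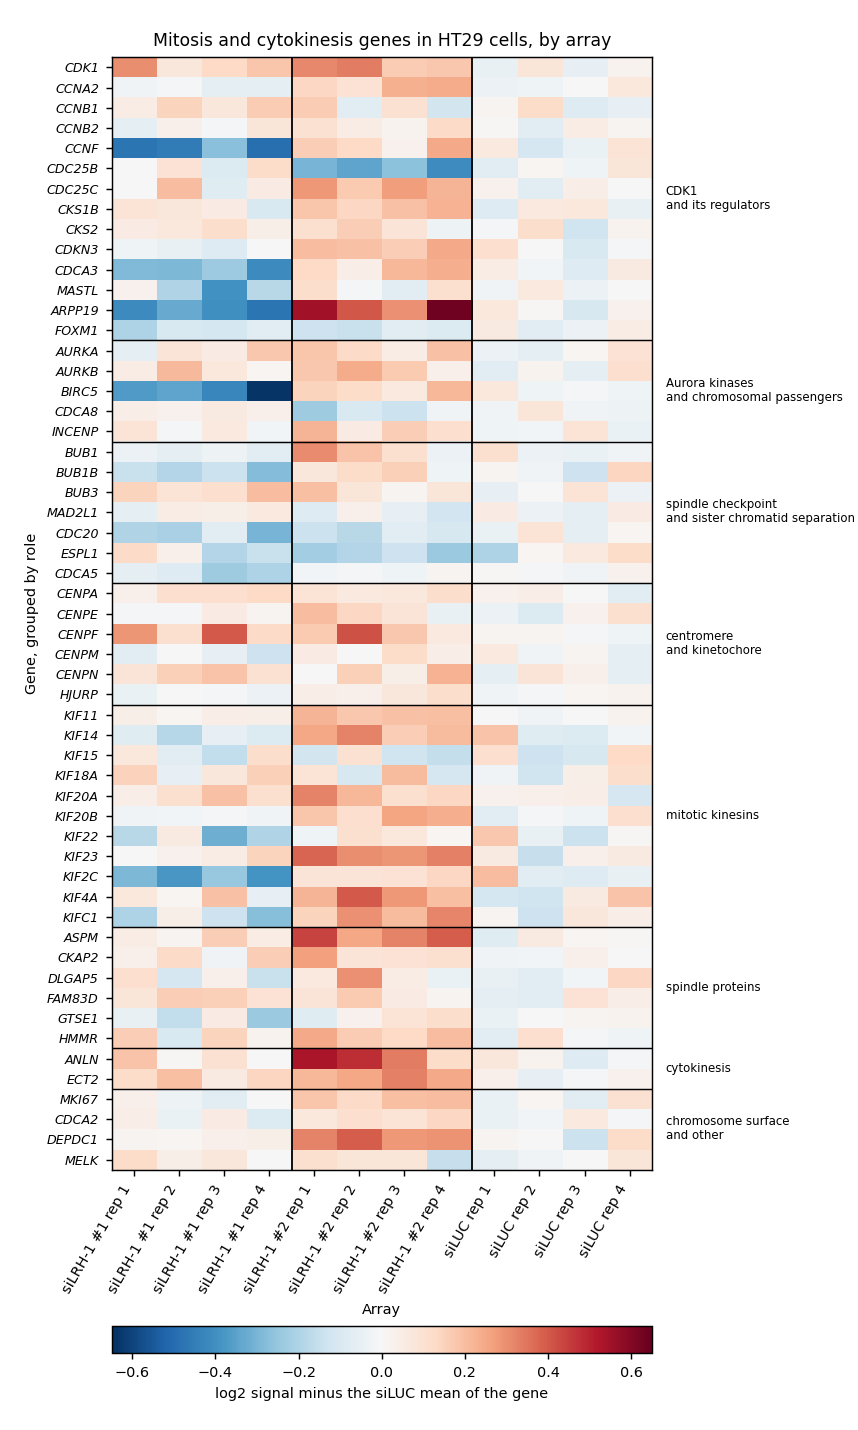
Log2 signal minus the siLUC mean of the gene (colour) for the 55 mitosis and cytokinesis genes (rows, grouped by role) in each of the 12 arrays (columns: siLRH-1 #1, siLRH-1 #2, siLUC). ARPP19, BIRC5, CCNF, CDCA3 and KIF2C are blue in all 4 siLRH-1 #1 arrays, and most rows are red in the siLRH-1 #2 arrays.

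The shift with siLRH-1 #2 was seen in each of its arrays. The median over the 55 members of the log2 signal minus the siLUC mean of the gene was 0.14, 0.12, 0.10 and 0.12 in siLRH-1 #2 replicates 1 to 4, and 45, 46, 46 and 40 members were above their siLUC mean. In the siLRH-1 #1 arrays the median was 0.03, 0.01, 0.04 and -0.00, with 27 to 31 members above, and in the siLUC arrays it lay between -0.02 and 0.02. In this median, siLRH-1 #2 did not overlap with either other group, whereas the siLRH-1 #1 arrays overlapped with siLUC. The siLUC arrays lie near 0 by construction, since their own mean was subtracted, and all arrays share that reference. Deviations from the group means, over the 12 arrays that all genes share, had a median correlation of 0.0222 over 1485 pairs of members, against 0.000224 over pairs of named genes, and 7.88% and 8.00% of pairs were above 0.5.

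**Figure D3:**
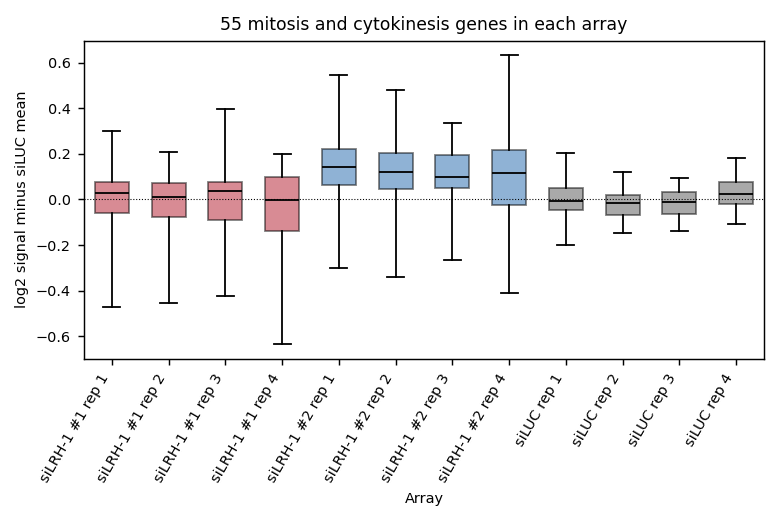
Distribution over the 55 members of the log2 signal minus the siLUC mean of the gene in each array (boxes: quartiles and median; whiskers: lowest and highest member). The medians of the 4 siLRH-1 #2 arrays lie between 0.10 and 0.14, above the 4 siLRH-1 #1 and 4 siLUC arrays, which lie between -0.02 and 0.04.

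Of 14 genes for CDK1 and its regulators, siLRH-1 #1 lowered 3, and siLRH-1 #2 raised 4 and lowered 1. Of all named genes, 5.17% were lower with siLRH-1 #1, and 5.14% were higher and 4.88% lower with siLRH-1 #2. The 5 calls with siLRH-1 #2 became 2 without siLRH-1 #2 replicate 1, and 3 without any 1 of siLUC replicates 2 to 4 and siLRH-1 #2 replicates 2 and 3. ARPP19, which once phosphorylated by MASTL inhibits PP2A-B55, had log2 signals of 9.00, 9.08, 9.01 and 8.93 with siLRH-1 #1, of 9.96, 9.81, 9.71 and 10.04 with siLRH-1 #2, against 9.48, 9.42, 9.30 and 9.44 with siLUC. The 3 groups were fully apart, with siLUC between the 2 LRH-1 siRNAs. With siLRH-1 #1, ARPP19 was 1.32-fold lower (a log2 change of -0.40, SE 0.07, adjusted p = 0.000599), and it was 1.39-fold higher with siLRH-1 #2 (0.47, SE 0.07, adjusted p = 0.000121). Directly compared, siLRH-1 #1 was 1.83-fold below siLRH-1 #2 (adjusted p = 2.53e-08). The second ARPP19 probe, dimmer on average, was called in the same directions, with log2 changes of -0.27 (adjusted p = 0.0175) and 0.38 (adjusted p = 0.000811).

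CCNF, the F-box protein cyclin F of an SCF ubiquitin ligase, had log2 signals of 9.94, 9.96, 10.15 and 9.93 with siLRH-1 #1, of 10.57, 10.55, 10.44 and 10.66 with siLRH-1 #2, against 10.48, 10.31, 10.37 and 10.50 with siLUC. All siLRH-1 #1 arrays lay below all others, and the siLRH-1 #2 and siLUC arrays overlapped. It was 1.34-fold lower with siLRH-1 #1 (-0.42, SE 0.07, adjusted p = 0.000247), while its change with siLRH-1 #2 was 0.14 (adjusted p = 0.255). CDCA3, a ubiquitin ligase factor known for promoting mitotic entry, had 9.62, 9.62, 9.67 and 9.50 with siLRH-1 #1, 10.04, 9.95, 10.12 and 10.14 with siLRH-1 #2, and 9.95, 9.89, 9.82 and 9.97 with siLUC. Here too the siLRH-1 #1 arrays were lowest throughout. CDCA3 was 1.24-fold lower with siLRH-1 #1 (-0.31, SE 0.06, adjusted p = 0.00282), and its change of 0.16 with siLRH-1 #2 was not called (adjusted p = 0.156). Between the siRNAs, CCNF differed by -0.56 (adjusted p = 4.38e-06) and CDCA3 by -0.46 (adjusted p = 1.98e-05).

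CDC25B, a phosphatase that activates CDK1, was the member that fell with siLRH-1 #2. Its log2 signals were 11.59, 11.68, 11.49 and 11.70 with siLRH-1 #1, 11.28, 11.24, 11.32 and 11.17 with siLRH-1 #2, and 11.52, 11.60, 11.56 and 11.66 with siLUC. The 4 siLRH-1 #2 arrays were below the other 8, a 1.26-fold decrease against siLUC (-0.33, SE 0.06, adjusted p = 0.00136), and siLRH-1 #1 was 1.28-fold above siLRH-1 #2 (adjusted p = 0.00033). Its relative CDC25C went the other way with siLRH-1 #2, at 7.85, 8.06, 7.78 and 7.91 with siLRH-1 #1, 8.14, 8.03, 8.13 and 8.08 with siLRH-1 #2, and 7.88, 7.78, 7.90 and 7.86 with siLUC. All siLRH-1 #2 arrays were above all siLUC arrays, by 1.18-fold (0.24, SE 0.06, adjusted p = 0.0238). This call was lost on leaving out siLUC replicate 2 (adjusted p = 0.0816) or 4 (0.0509), or replicate 1 (0.072) or 3 (0.0612) of siLRH-1 #2, and the second CDC25C probe was not called (0.10, adjusted p = 0.483).

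CDK1, the kinase that starts mitosis, had log2 signals of 11.01, 10.79, 10.84 and 10.89 with siLRH-1 #1, of 11.02, 11.05, 10.87 and 10.89 with siLRH-1 #2, against 10.66, 10.79, 10.66 and 10.74 with siLUC. Its siLRH-1 #2 arrays were above siLUC throughout, whereas siLRH-1 #1 replicate 2 overlapped with siLUC. CDK1 rose 1.19-fold with siLRH-1 #2 (0.25, SE 0.06, adjusted p = 0.0211), and its change of 0.17 with siLRH-1 #1 was not called (adjusted p = 0.131). The call with siLRH-1 #2 was lost on leaving out siLUC replicate 1 (adjusted p = 0.0613) or 3 (0.069), or replicate 1 (0.0721) or 2 (0.0679) of siLRH-1 #2. The second CDK1 probe, dimmer, was called with siLRH-1 #2 as well (0.36, adjusted p = 0.00284).

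CDKN3, a phosphatase that acts on cyclin-dependent kinases, had 10.58, 10.56, 10.52 and 10.61 with siLRH-1 #1, 10.81, 10.80, 10.77 and 10.85 with siLRH-1 #2, and 10.72, 10.61, 10.51 and 10.60 with siLUC. Here siLRH-1 #2 was above all 8 other arrays. CDKN3 rose 1.15-fold with siLRH-1 #2 (0.20, SE 0.06, adjusted p = 0.0387), and the difference between siLRH-1 #1 and siLRH-1 #2 was -0.24 (adjusted p = 0.00828). The call against siLUC was lost on leaving out any 1 of siLUC replicates 2, 3 and 4 or of the 4 siLRH-1 #2 arrays, with adjusted p between 0.0518 and 0.139.

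The cyclins that bind CDK1 moved less. CCNA2 (cyclin A) had 11.24, 11.25, 11.20 and 11.20 with siLRH-1 #1, 11.40, 11.36, 11.49 and 11.50 with siLRH-1 #2, and 11.23, 11.23, 11.26 and 11.33 with siLUC. Its siLRH-1 #2 arrays were above the other 8, but the log2 change of 0.17 against siLUC was not called (SE 0.06, adjusted p = 0.0672), and the difference of -0.21 between siLRH-1 #1 and siLRH-1 #2 was (adjusted p = 0.0175). That difference was lost on leaving out replicate 4 of siLRH-1 #1 (adjusted p = 0.0549) or replicate 3 (0.0551) or 4 (0.0636) of siLRH-1 #2. CCNB1 (cyclin B) had 9.98, 10.07, 10.00 and 10.09 with siLRH-1 #1, 10.09, 9.86, 10.03 and 9.81 with siLRH-1 #2, and 9.95, 10.05, 9.84 and 9.88 with siLUC. All 3 groups overlapped for CCNB1, and 95% intervals of the change ran between -0.03 and 0.25 with siLRH-1 #1 and between -0.12 and 0.16 with siLRH-1 #2.

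MASTL, the kinase upstream of ARPP19, had log2 signals of 8.27, 8.05, 7.85 and 8.06 with siLRH-1 #1, of 8.35, 8.23, 8.17 and 8.35 with siLRH-1 #2, against 8.22, 8.30, 8.20 and 8.24 with siLUC. Replicate 1 of siLRH-1 #1 lay among the siLUC values and the other 3 below them. The change with siLRH-1 #1 was -0.19 (SE 0.07, adjusted p = 0.161), and without siLRH-1 #1 replicate 1 MASTL was called, at -0.26 (adjusted p = 0.0342). Its second, dimmer probe differed between siLRH-1 #1 and siLRH-1 #2 (-0.22, adjusted p = 0.0203), where the brighter one was not called (-0.22, adjusted p = 0.0672). FOXM1, the transcription factor of late cell cycle genes, had 8.57, 8.67, 8.66 and 8.71 with siLRH-1 #1, 8.64, 8.63, 8.71 and 8.68 with siLRH-1 #2, and 8.83, 8.70, 8.74 and 8.82 with siLUC. Its arrays overlapped in every comparison, at log2 changes of -0.12 and -0.11 (adjusted p = 0.257 and 0.302). CCNB2, CKS1B and CKS2 were not called either, with changes between 0.01 and 0.18, although the second, dimmer CKS2 probe was called with siLRH-1 #2 (0.20, adjusted p = 0.0478).

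BIRC5, known as survivin, holds the chromosomal passenger complex at centromeres with INCENP, CDCA8 and the kinase AURKB. Its log2 signals were 9.03, 9.05, 8.97 and 8.76 with siLRH-1 #1, 9.53, 9.51, 9.46 and 9.61 with siLRH-1 #2, and 9.46, 9.37, 9.38 and 9.37 with siLUC. All siLRH-1 #1 arrays lay below the other 8, and siLRH-1 #2 overlapped with siLUC only at siLUC replicate 1. BIRC5 fell 1.36-fold with siLRH-1 #1 (-0.44, SE 0.07, adjusted p = 0.000114), while its change with siLRH-1 #2 was 0.14 (adjusted p = 0.257), and the siRNAs differed by -0.58 (adjusted p = 2.21e-06). The second probe, of mean log2 signal 7.14, was called with siLRH-1 #1 as well (-0.32, adjusted p = 0.00796).

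The other members of this group of 5 were not called in any comparison. AURKA, the kinase of spindle poles, had 11.55, 11.70, 11.67 and 11.79 with siLRH-1 #1, 11.79, 11.74, 11.66 and 11.80 with siLRH-1 #2, and 11.57, 11.55, 11.62 and 11.70 with siLUC. AURKB had 9.21, 9.37, 9.23 and 9.18 with siLRH-1 #1, 9.34, 9.40, 9.34 and 9.20 with siLRH-1 #2, and 9.09, 9.19, 9.11 and 9.27 with siLUC. Both kinases overlapped between all groups, and their log2 changes of 0.06 (AURKA) and 0.08 (AURKB) under siLRH-1 #1, and 0.14 and 0.15 under siLRH-1 #2, were not called. CDCA8 was at 0.04 and -0.12 relative to siLUC and INCENP at 0.03 and 0.13. A second, dim INCENP probe of mean log2 signal 6.44 was called lower with siLRH-1 #2 (-0.27, adjusted p = 0.0311).

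Of 7 genes of the spindle checkpoint and of sister chromatid separation, limma called 0 against siLUC. Leaving out siLUC replicate 3 or siLRH-1 #1 replicate 3 called 1 with siLRH-1 #1, and leaving out siLUC replicate 1 called 1 with siLRH-1 #2. BUB1, a checkpoint kinase, had 9.66, 9.63, 9.67 and 9.63 with siLRH-1 #1, 10.01, 9.88, 9.80 and 9.66 with siLRH-1 #2, and 9.81, 9.66, 9.65 and 9.68 with siLUC. Its siLRH-1 #2 arrays spread widely and overlapped with siLUC, at a change of 0.14 (SE 0.07, adjusted p = 0.257). BUB1 differed by -0.19 between siLRH-1 #1 and siLRH-1 #2 (adjusted p = 0.0784, or 0.018 without siLRH-1 #2 replicate 4). BUB1B (BUBR1) was at 8.05, 8.00, 8.05 and 7.91 with siLRH-1 #1, 8.27, 8.31, 8.35 and 8.17 with siLRH-1 #2, and 8.21, 8.17, 8.06 and 8.33 with siLUC. Its siLRH-1 #1 arrays were lowest, by -0.27 against siLRH-1 #2 (adjusted p = 0.009) and by -0.19 against siLUC (adjusted p = 0.0967, or 0.0439 without siLUC replicate 3). CDC20, the activator of the anaphase-promoting complex, was below siLUC in all 4 arrays of both siRNAs, at -0.19 (adjusted p = 0.0604) and -0.12 (adjusted p = 0.263). BUB3, MAD2L1, ESPL1 (separase) and CDCA5 (sororin) had changes between -0.20 and 0.14.

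The 6 centromere and kinetochore genes were CENPA, CENPE, CENPF, CENPM, CENPN and HJURP, and limma called 0 of them in any comparison. Leaving out siLRH-1 #1 replicate 2 or siLRH-1 #2 replicate 2 called 1 with siLRH-1 #1. CENPF, a protein of the outer kinetochore, had the largest changes of the 6, 0.23 with siLRH-1 #1 (adjusted p = 0.0758) and 0.21 with siLRH-1 #2 (adjusted p = 0.112), with all arrays of both siRNAs above siLUC. The other 5 lay between -0.06 and 0.13. The second CENPM probe was lower with siLRH-1 #1 than siLRH-1 #2 (-0.21, adjusted p = 0.0397). When probes of mean log2 signal under 7 were left out of the test, CDK1 and CENPF were called higher with both siRNAs.

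Of 11 mitotic kinesins, siLRH-1 #1 lowered 1 and siLRH-1 #2 raised 6. Of all named genes, 5.17% were lower with siLRH-1 #1 and 5.14% higher with siLRH-1 #2. KIF2C, a microtubule depolymerase at centromeres, was the one that fell: it had 8.65, 8.56, 8.69 and 8.55 with siLRH-1 #1, 9.02, 9.02, 9.03 and 9.07 with siLRH-1 #2, and 9.14, 8.86, 8.85 and 8.89 with siLUC. The siLRH-1 #1 arrays lay below all others, and siLUC replicate 1 was the highest array. KIF2C was 1.25-fold lower with siLRH-1 #1 (-0.33, SE 0.07, adjusted p = 0.00271) and changed by 0.10 with siLRH-1 #2 (adjusted p = 0.444), and the siRNAs differed by -0.42 (adjusted p = 0.000106).

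KIF23, a motor of the central spindle needed for cytokinesis, had 9.55, 9.57, 9.59 and 9.69 with siLRH-1 #1, 9.92, 9.85, 9.83 and 9.87 with siLRH-1 #2, and 9.60, 9.40, 9.58 and 9.60 with siLUC. Again siLRH-1 #2 was above the other 8 arrays. It rose 1.25-fold (0.32, SE 0.06, adjusted p = 0.00147), the largest change among the kinesins with siLRH-1 #2, and siLRH-1 #1 was 0.27 below siLRH-1 #2 (adjusted p = 0.00529). With the mean of both KIF23 probes the change was 0.20 (adjusted p = 0.0656); the second probe was dim, at a mean log2 signal of 6.30.

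KIFC1, a minus-end motor that focuses spindle poles, had 9.70, 9.94, 9.77 and 9.62 with siLRH-1 #1, 10.04, 10.20, 10.10 and 10.22 with siLRH-1 #2, and 9.92, 9.76, 9.97 and 9.94 with siLUC. KIF14, a motor of the midbody, had 8.96, 8.85, 8.98 and 8.95 with siLRH-1 #1, 9.29, 9.36, 9.20 and 9.24 with siLRH-1 #2, and 9.22, 8.96, 8.95 and 9.02 with siLUC. For both, siLRH-1 #2 was the highest group, with siLUC replicate 1 overlapping for KIF14. Against siLUC they rose 1.18-fold each with siLRH-1 #2 (0.24, SE 0.07, adjusted p = 0.0422 for KIFC1; 0.24, SE 0.07, adjusted p = 0.0328 for KIF14). Between the siRNAs the differences were larger, -0.38 for KIFC1 (adjusted p = 0.000727) and -0.34 for KIF14 (adjusted p = 0.0014), and these were called under every setting tried.

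KIF11 (Eg5), which pushes the spindle poles apart, had 9.34, 9.32, 9.35 and 9.34 with siLRH-1 #1, 9.53, 9.48, 9.50 and 9.50 with siLRH-1 #2, and 9.30, 9.28, 9.30 and 9.33 with siLUC. KIF4A, a motor on chromosome arms, had 7.60, 7.55, 7.72 and 7.48 with siLRH-1 #1, 7.76, 7.94, 7.82 and 7.73 with siLRH-1 #2, and 7.42, 7.41, 7.59 and 7.72 with siLUC. In both kinesins the siLRH-1 #2 arrays were above all others, by a wide margin relative to their spread for KIF11 and a narrow one for KIF4A. KIF11 rose 1.15-fold with siLRH-1 #2 (0.20, SE 0.05, adjusted p = 0.023), KIF4A 1.21-fold (0.28, SE 0.07, adjusted p = 0.0259) and KIF20B 1.15-fold (0.20, SE 0.06, adjusted p = 0.0432). The second KIF11 probe was also called (0.24, adjusted p = 0.0421). Between the siRNAs KIF11 differed by -0.16 (adjusted p = 0.0485), a call lost whichever single array was left out (adjusted p between 0.0565 and 0.12), and KIF20B by -0.22 (adjusted p = 0.0178, or 0.0567 and 0.0563 without siLRH-1 #2 replicate 3 or 4).

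The kinesin calls with siLRH-1 #2 depended on single arrays. Leaving out siLUC replicate 2 left 1 of the 6, KIF23, and siLUC replicate 3 left 2, while siLUC replicate 1 or any 1 of the siLRH-1 #2 arrays left 3. Without siLUC replicate 2, adjusted p was 0.0649 for KIF11, 0.108 for KIF14, 0.0916 for KIF20B, 0.1 for KIF4A and 0.151 for KIFC1. The log2 changes stayed between 0.19 and 0.23 for these 5. The remaining kinesins, KIF15, KIF18A, KIF20A and KIF22, were not called in any comparison, and KIF20A had the largest of their changes with siLRH-1 #2 (0.20, adjusted p = 0.0646).

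ASPM, which organises microtubules at spindle poles, was the 1 of 6 spindle proteins that rose with siLRH-1 #2, beside 5.14% of named genes. It had 10.13, 10.10, 10.24 and 10.12 with siLRH-1 #1, 10.52, 10.33, 10.40 and 10.47 with siLRH-1 #2, and 10.00, 10.14, 10.09 and 10.09 with siLUC. Its siLRH-1 #2 arrays were the highest 4, and the other groups overlapped. ASPM was 1.28-fold higher with siLRH-1 #2 (0.35, SE 0.06, adjusted p = 0.000561) and changed by 0.07 with siLRH-1 #1 (adjusted p = 0.615), with a difference of -0.28 between the siRNAs (adjusted p = 0.00276). CKAP2, DLGAP5, FAM83D, GTSE1 and HMMR were not called in any comparison, with changes between 0.04 and 0.19 with siLRH-1 #2, and the second HMMR probe was called (0.23, adjusted p = 0.0195), while the second DLGAP5 probe differed between siLRH-1 #1 and siLRH-1 #2 (-0.20, adjusted p = 0.037).

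The cytokinesis group held 2 genes, ANLN and ECT2, and both rose with siLRH-1 #2, as did 5.14% of named genes. Members that act in cytokinesis are also found in other groups, such as KIF23 among the kinesins. ANLN (anillin), a scaffold of the contractile ring, had 10.01, 9.83, 9.92 and 9.82 with siLRH-1 #1, 10.35, 10.31, 10.16 and 9.95 with siLRH-1 #2, and 9.90, 9.85, 9.74 and 9.81 with siLUC. ECT2, the exchange factor that activates RhoA at the cleavage site, had 11.10, 11.18, 11.04 and 11.12 with siLRH-1 #1, 11.20, 11.23, 11.31 and 11.23 with siLRH-1 #2, and 11.01, 10.93, 10.97 and 11.01 with siLUC. For ECT2 the 3 groups were apart, with siLRH-1 #1 in the middle, whereas siLRH-1 #2 replicate 4 of ANLN fell within the siLRH-1 #1 range. With siLRH-1 #2, ANLN was 1.29-fold higher (0.37, SE 0.08, adjusted p = 0.00387) and ECT2 was also higher (0.26, SE 0.06, adjusted p = 0.00487). With siLRH-1 #1 the changes were 0.07 for ANLN and 0.13 for ECT2 (adjusted p = 0.692 and 0.211). Between the siRNAs ANLN differed by -0.29 (adjusted p = 0.0144, or 0.0573 without siLRH-1 #1 replicate 4 and 0.0716 without siLRH-1 #2 replicate 1), and ECT2 by -0.13 (adjusted p = 0.161).

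DEPDC1, a protein that peaks in mitosis, had 9.06, 9.05, 9.07 and 9.07 with siLRH-1 #1, 9.36, 9.43, 9.32 and 9.33 with siLRH-1 #2, and 9.05, 9.04, 8.90 and 9.16 with siLUC. All 4 siLRH-1 #2 arrays were the highest, 1.25-fold above siLUC (0.32, SE 0.06, adjusted p = 0.00125), and siLRH-1 #1 was 0.30 below siLRH-1 #2 (adjusted p = 0.00169). MKI67 (Ki-67), the proliferation marker that coats mitotic chromosomes, had 6.82, 6.76, 6.72 and 6.79 with siLRH-1 #1, 6.98, 6.92, 6.99 and 6.99 with siLRH-1 #2, and 6.75, 6.81, 6.73 and 6.89 with siLUC. Its siLRH-1 #2 arrays were the highest as well, but close to the array medians in signal, and the change of 0.18 was not called (SE 0.06, adjusted p = 0.0672, or 0.0442 without siLUC replicate 4). Between siLRH-1 #1 and siLRH-1 #2, MKI67 differed by -0.19 (adjusted p = 0.0312), a call lost without any 1 of siLRH-1 #1 replicates 2, 3 and 4 and siLRH-1 #2 replicates 1, 3 and 4 (adjusted p between 0.0637 and 0.09). CDCA2 and MELK were not called in any comparison.

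**Figure D4:**
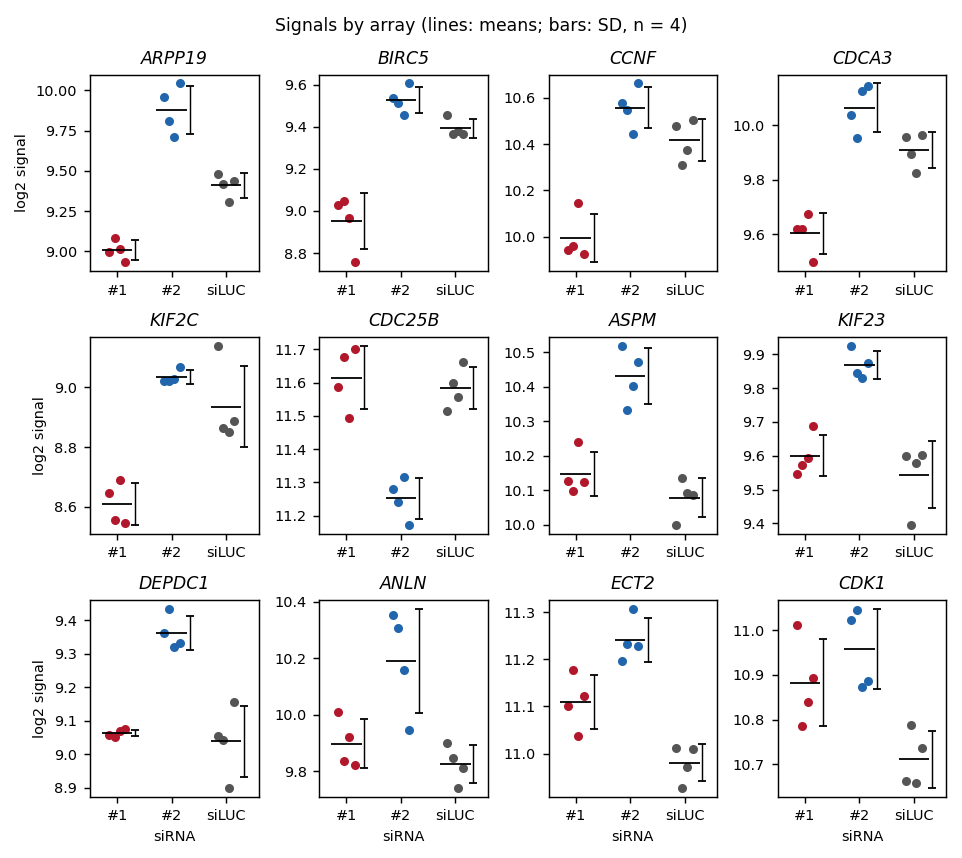
Log2 signal of 12 members in each array (points), with the group mean (line) and SD (bar, n = 4), for siLRH-1 #1, siLRH-1 #2 and siLUC; each axis has its own range. ARPP19 falls with siLRH-1 #1 and rises with siLRH-1 #2, BIRC5, CCNF, CDCA3 and KIF2C fall with siLRH-1 #1, CDC25B falls with siLRH-1 #2, and the others rise with siLRH-1 #2.

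**Figure D5:**
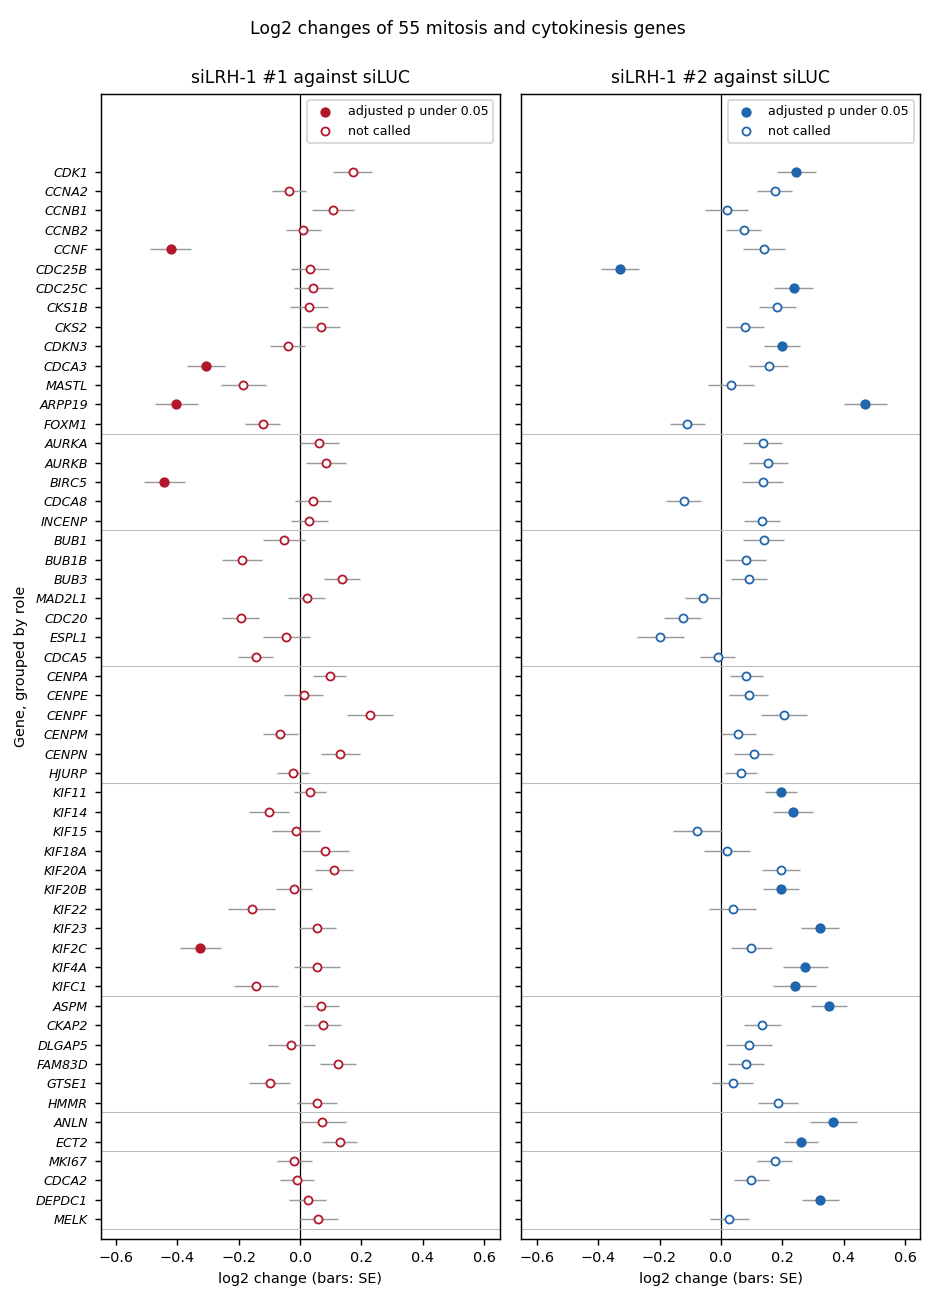
Log2 change of each of the 55 members against siLUC (points; bars: SE), with siLRH-1 #1 at left and siLRH-1 #2 at right, filled where the adjusted p was under 0.05. There are 5 filled points at left, all below 0, and 15 at right, 14 of them above 0.

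Related genes that are not members were measured beside them. For their counts, the shares of all named genes were 5.05% higher and 5.17% lower with siLRH-1 #1. With siLRH-1 #2 they were 5.14% higher and 4.88% lower. Of 9 genes of the PP2A-B55 pathway 1 was measured, ENSA, the paralog of ARPP19 with the same action on PP2A-B55. ENSA had 10.95, 11.05, 10.88 and 10.84 with siLRH-1 #1, 10.77, 10.75, 10.90 and 10.77 with siLRH-1 #2, and 11.06, 11.11, 10.97 and 10.91 with siLUC. It was lower with siLRH-1 #2, where ARPP19 was higher, by 0.21 on the log2 scale (adjusted p = 0.0472), but 9 of the 12 arrays ended this call when left out (adjusted p between 0.0507 and 0.152): siLUC replicates 1 to 3, siLRH-1 #1 replicates 1, 3 and 4, and siLRH-1 #2 replicates 1, 2 and 4. Of 13 measured subunits of the anaphase-promoting complex, CDC23 fell with siLRH-1 #1 (-0.35, adjusted p = 0.00271) and ANAPC16 with siLRH-1 #2 (-0.23, adjusted p = 0.0374, or between 0.0627 and 0.116 without any 1 of siLUC replicates 1, 2 and 4 and siLRH-1 #2 replicates 1, 2 and 4).

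Of 18 further mitosis genes with a named probe of 62 listed, siLRH-1 #1 raised 2 and lowered 2, and siLRH-1 #2 raised 3 and lowered 1. Their median log2 change was -0.03 with siLRH-1 #1 and 0.06 with siLRH-1 #2, beside 0.02 and 0.13 for the members. With siLRH-1 #1, 44.4% of the 18 were above siLUC, beside 54.5% of the members. With siLRH-1 #2 these shares were 77.8% and 85.5%, so the values of the members do not stand for all mitosis genes. The authors list a probe of NUSAP1, which is among the 62, as higher with both LRH-1 siRNAs in HT29 cells. That probe is not in these counts. CDC25A, the third CDC25 phosphatase, fell with both, by 0.35 with siLRH-1 #1 and by 0.37 with siLRH-1 #2 on the log2 scale (adjusted p = 0.000296 and 0.00018). Its arrays lay at 9.47, 9.48, 9.43 and 9.38 with siLRH-1 #1 and 9.45, 9.37, 9.40 and 9.45 with siLRH-1 #2, all below 9.85, 9.76, 9.82 and 9.71 with siLUC. CDC14B, another mitotic phosphatase, was higher by 0.34 with siLRH-1 #1 (adjusted p = 0.000987) and by 0.22 with siLRH-1 #2 (adjusted p = 0.0337). The second call was lost on leaving out siLUC replicate 1, 2 or 4, or replicate 1, 2 or 3 of siLRH-1 #2, with adjusted p between 0.0536 and 0.0932. KNTC1, of the kinetochore, rose with siLRH-1 #2 (0.30, adjusted p = 0.0114, or 0.0523 without siLRH-1 #2 replicate 1), and NEK7, a mitotic kinase, with siLRH-1 #1 (0.31, adjusted p = 0.0117, or 0.0529 without siLUC replicate 2 and 0.0674 without siLRH-1 #1 replicate 4). The counts of this list fell to 2 with siLRH-1 #1 without either of those arrays, and with siLRH-1 #2 they fell to 1 without its replicate 1 and to 2 on leaving out siLUC replicate 2 or 4 or its own replicate 2 or 3.

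Regulators of these promoters were measured for 14 of 23 genes, with 4 higher and 2 lower under siLRH-1 #1, and 4 higher and 1 lower under siLRH-1 #2. The 4 named here had the smallest adjusted p of those called, and each call was a rise. The genes called lower are not named. The lowest log2 changes among the 14 were -0.31 with siLRH-1 #1 and -0.21 with siLRH-1 #2. Of named genes, 5.05% were higher and 5.17% lower under siLRH-1 #1, and 5.14% higher and 4.88% lower under siLRH-1 #2. E2F5 and E2F6, E2F factors known mainly as repressors, were higher with both: E2F5 by 0.94 with siLRH-1 #1 (adjusted p = 7.04e-08) and 0.43 with siLRH-1 #2 (adjusted p = 0.00114), and E2F6 by 0.40 (adjusted p = 0.000129) and 0.28 (adjusted p = 0.00479). E2F5 had 10.49, 10.37, 10.46 and 10.46 with siLRH-1 #1, 9.84, 10.11, 9.97 and 9.80 with siLRH-1 #2, and 9.28, 9.62, 9.62 and 9.48 with siLUC. The 3 groups did not overlap for E2F5. MYBL1 (A-MYB) rose with siLRH-1 #2 (0.43, adjusted p = 7.6e-05), at a signal near the array medians, and E2F3 rose with both (0.28 for siLRH-1 #1 and 0.21 for siLRH-1 #2, adjusted p = 0.00164 and 0.0227; the second was lost on leaving out siLUC replicate 1 or 2, or replicate 2 or 3 of siLRH-1 #2, with adjusted p between 0.0546 and 0.0653). On leaving out siLUC replicate 1, or replicate 2 or 3 of siLRH-1 #2, 3 were called with siLRH-1 #2.

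Genes of DNA replication, transcribed earlier in the cell cycle than the members, were called mainly with siLRH-1 #1. Of 22 with a named probe of 45 listed, 8 fell and 0 rose there, and 1 rose with siLRH-1 #2. Set against siLRH-1 #2, siLRH-1 #1 had 13 of them lower. Of named genes, 5.17% fell and 5.05% rose with siLRH-1 #1, 5.14% rose with siLRH-1 #2, and 7.73% were lower between the siRNAs. The authors list a probe of CCNE2, which is among the 45, as higher with both LRH-1 siRNAs in HT29 cells. That probe is not in these counts. The median log2 change of the 22 was -0.13 with siLRH-1 #1 and 0.08 with siLRH-1 #2, beside 0.02 and 0.13 for the mitosis members. MCM10, a replication initiation factor, had 9.30, 9.01, 9.13 and 9.02 with siLRH-1 #1, 10.00, 10.10, 9.73 and 10.15 with siLRH-1 #2, and 10.09, 9.73, 9.79 and 10.03 with siLUC. It was 1.74-fold lower with siLRH-1 #1 (adjusted p = 4.73e-06), with all 4 arrays below all others, and CDC45 was 1.38-fold lower (adjusted p = 0.000279), MCM4 changed by -0.26 (adjusted p = 0.0112) and FEN1 by -0.27 (adjusted p = 0.0113, or 0.0548 without siLRH-1 #1 replicate 4). The 8 became 3 without siLRH-1 #1 replicate 4, 4 without siLUC replicate 1 or 4, and 5 without siLUC replicate 2 or siLRH-1 #1 replicate 2 or 3; the 1 gene higher with siLRH-1 #2, CDC7 (0.25, adjusted p = 0.0463; named after its value was seen), was not called when siLUC replicate 2, 3 or 4, siLRH-1 #1 replicate 1, 3 or 4, or siLRH-1 #2 replicate 1, 2 or 4 was left out.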

How the data were processed

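Total RNA of HT29 cells was hybridised to Illumina HumanHT-12 v4 BeadChips, 12 arrays in 3 groups of 4, and the labels gave each array's group and number. The deposited values were log2 probe signals: the authors read the images with GenomeStudio, dropped probes above a detection p of 0.05 on all arrays, and quantile-normalized the log2 signal in Partek. The submitters' processing notes give these tools without versions. Of 16381 probes, 0 values were missing, and 0 pairs of arrays were identical, with array medians between 6.56 and 6.57. Another table of 24 columns could not be given to samples and was not used. Precision is limited by having 4 arrays a group.

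Probes were named through the platform annotation (9756 with 1 symbol, 4 with several and left unnamed, 6621 with none). Gene IDs of 9746 probes matched RefSeq (GRCh38.p14). The members had 79 probes, 34 members 1 and 21 more than 1, and 0 members were called in opposite directions by their probes. The probe with the highest mean stood for its gene. Genomic positions of probes are not given, since the sources used here give no build for the array.

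The test was limma 3.58.1 under R 4.3.3 (lmFit with 3 group means, contrasts and eBayes, two-sided), with 9 residual and 12.1 prior degrees of freedom and Benjamini-Hochberg adjustment over all probes. A log2 change is a difference of mean log2 signals, its SE shares 1 estimate of the spread, and intervals are 95% intervals. The script was tested on simulated data. Alternatives were leaving out each array, the replicate number as a block, array weights, a minimum mean log2 signal of 7, other moderation of the spread, the mean of all probes of a gene, fits of 2 groups only and another centring. Values per array are given for members called in any comparison, at most 12 per comparison by adjusted p, and for 13 anchor genes. Motifs were searched in Python 3.11.15. The members, the lists and the rule for named genes were chosen with earlier results of these data known. The sources call the arrays biological replicates. The p-values set a group difference against the spread between arrays within groups, moderated towards that of all probes.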

Additional observations from a re-analysis of the deposited data

Results flagged for a closer look

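In 8 of 132 groups of 4 arrays tested, over the genes with values per array and the array medians of the members, 1 array lay far from the other 3; chance alone gives about 1 in 20 groups. Of these, 3 lay in siLUC replicate 1: KIF2C at 9.14 (the others 8.85 to 8.89), BUB1 at 9.81 (9.65 to 9.68) and BIRC5 at 9.46 (9.37 to 9.38), each the highest of its group. In siLUC replicate 2, KIF23 was lowest at 9.40 (9.58 to 9.60) and E2F6 highest at 9.63 (9.53 to 9.54). CCNF was highest in siLRH-1 #1 replicate 3 at 10.15 (9.93 to 9.96). KIF2C was highest in siLRH-1 #2 replicate 4 at 9.07 (9.02 to 9.03), a gap of small size because the 4 values were close. ENSA was highest in siLRH-1 #2 replicate 3 at 10.90 (10.75 to 10.77). BIRC5 and CCNF with siLRH-1 #1, KIF2C with siLRH-1 #1 and E2F6 with both siRNAs were called whichever array was left out, as was KIF23 with siLRH-1 #2.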

How the results depend on the processing

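The changes were small, so many calls lay near the threshold. Leaving out 1 array at a time gave 5 to 6 members called with siLRH-1 #1 against siLUC, 8 to 15 with siLRH-1 #2 against siLUC and 14 to 18 between the siRNAs. The median log2 change of the members lay between 0.007 and 0.031, between 0.107 and 0.135, and between -0.134 and -0.098 in these comparisons. With siLRH-1 #1 the median of 0.0211 became 0.0129 without siLUC replicate 1, 0.00659 without siLUC replicate 2, 0.0108 without siLRH-1 #1 replicate 2, 0.0106 without its replicate 4, and 0.00376 with the mean of all probes of a gene. Testing only the 6839 probes of mean log2 signal 7 or more, which adjusts over fewer probes, called 9 members with siLRH-1 #1 (2 higher and 7 lower), 20 with siLRH-1 #2, 23 between the siRNAs and 2 (CDK1 and CENPF) in the same direction with both. All other settings gave 5 or 6, 12 to 18, and 17 to 21 members, and 0 in the same direction with both. The replicate numbers gave no sign of pairing the arrays: the correlation of deviations of same-numbered arrays lay between -0.151 and 0.204, above 0.1 in 2 of 12 pairs. For arrays of different number and group it lay between -0.222 and 0.276, above 0.1 in 8 of 36 pairs. So few arrays cannot exclude a pairing. With the replicate number as a block, 5, 12 and 18 members were called in the 3 comparisons. Of the members called in a comparison, 0 changed sign there under these settings, whereas some changes near 0 that were not called did, among them those of CCNB1 with siLRH-1 #2 and of KIF23 and DEPDC1 with siLRH-1 #1. The dimmest member, MKI67, lay close to the array medians, where a missing call says little.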
